A study of Mus musculus with 6 samples.

Results

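The cytosolic ribosomal protein genes were taken as the protein-coding genes whose symbol starts with Rpl or Rps and a digit, together with Rplp0, Rplp1, Rplp2 and Rpsa, leaving out the Rps6k kinases and annotated pseudogenes. This rule gave 86 of the 54532 genes in the count files, of which 31 encode core proteins of the small ribosomal subunit, 46 core proteins of the large subunit and 9 are paralogs or other genes that carry the name. RNA was sequenced from mouse conventional type 1 dendritic cells (cDC1), the dendritic cells specialised in cross-presentation, which were grown from bone marrow with the growth factor FLT3L at 80 ng/mL for 8 days and sorted as CD24+ CD11c+ B220- CD115- CD172a-. The WT libraries (n = 3) came from c-Jun/JunB fl/fl cells, in which both AP-1 genes are flanked by loxP sites and intact, and the KO libraries (n = 3) from c-Jun/JunB fl/fl Itgax-Cre cells, in which Cre is driven by the CD11c promoter and removes both genes in CD11c+ cells. Both groups shared the floxed alleles and the FLT3L culture. The study used adult mice of both sexes on a mixed 129 Sv and C57BL/6 background, and the sex behind each library is not given. A legend of the study describes the sequenced samples as individual mice, while the sample labels give only replicate numbers.

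Each ribosome carries one copy of nearly every ribosomal protein, and the genes that encode them are therefore usually transcribed in parallel, without a tissue-specific switch. Their mRNAs start with a run of pyrimidines, the 5' terminal oligopyrimidine (TOP) tract, through which mTORC1 signalling controls their translation. A few members have further roles: the P stalk proteins recruit translation factors, Rpl5 and Rpl11 carry the 5S RNA and can bind Mdm2, the inhibitor of p53, and Rps6 is the classical substrate of the S6 kinases. The processed mRNAs have also been copied back into the genome many times, which leaves pseudogenes nearly identical to their source.

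Pyrimidine runs at the annotated start are shown for 6 of the members described below, because the family is known for the TOP tract. The runs were not used to choose the family, but the 6 were picked for having one. The 30 bases run from 10 before the annotated start base to 19 after it (RefSeq, GRCm38.p6), and the capitals mark the pyrimidine run that covers the start base. In Rps9, most of the marked run lies before the annotated start base.
Rpl27a, chr7:109519185-109519214, plus strand: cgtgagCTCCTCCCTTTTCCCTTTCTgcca
Rps6, chr4:86857348-86857377, minus strand: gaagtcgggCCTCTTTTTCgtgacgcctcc
Rplp2, chr7:141447641-141447670, plus strand: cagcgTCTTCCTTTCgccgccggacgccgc
Rps9, chr7:3704031-3704060, plus strand: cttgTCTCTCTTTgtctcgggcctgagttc
Rps27, chr3:90213629-90213658, minus strand: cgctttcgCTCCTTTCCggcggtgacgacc
Rps10, chr17:27635225-27635254, minus strand: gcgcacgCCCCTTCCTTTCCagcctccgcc
Promoter windows of 250 bases before to 50 after the start were at hand for 66 members, as 78 windows. A run of at least 6 pyrimidines over the start base was present in 20 of these 78 windows (25.6%) and in 7.25% of all 32851 windows. Start sites were not measured here, so a window without such a run was not read as a gene without the tract. The 6 members shown were taken from these 20 windows, and Rpl3, Rpl30 and Rps13 were not among them. The letters CCGGAAG, an ETS-family motif, stood on either strand in 27 of the 78 windows (34.6%) and in 8.86% of all windows. The letters TGANTCA, the AP-1 motif to which Jun proteins bind, which reads the same on both strands, stood in 2 of the 78 windows (2.56%), those of Rpl22 and Rpl9, and in 7.81% of all windows. TATAAA stood on either strand in 7 of the 78 windows (8.97%) and in 13.6% of all windows. The letters CCGGAAG and the pyrimidine run can overlap at the start site, and a match is a description of the letters only.

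The libraries held between 21693217 and 26788296 reads on genes. Levels are given as CPM (reads on a gene relative to the reads on all genes of the library) scaled by the trimmed mean of M-values (TMM), and changes as log2 fold changes of KO against WT. The mRNA of Junb, one of the 2 targeted genes, was at 315, 274 and 413 CPM in WT and at 110, 171 and 212 CPM in KO. All KO libraries lay below all WT libraries, with a log2 fold change of -1.02 ± 0.25 (SE) and an edgeR adjusted p of 0.0729, which missed 0.05. The mRNA of Jun was at 70.9, 52.5 and 63.1 CPM in WT and at 48.2, 44.3 and 60.5 CPM in KO. These groups overlapped (log2 fold change -0.29 ± 0.15, edgeR adjusted p = 0.345). The reads were counted over whole genes, not over the floxed stretch alone. By quantitative RT-PCR, the study reported deletion of both genes in cDC1 sorted from spleen and lymph nodes. Those are other cells than the ones sequenced here. Of the 10 cDC1 markers, 6 had a log2 fold change below 0, and the median was -0.20. Called lower in KO were Xcr1 (log2 fold change -1.42, edgeR adjusted p = 0.00812) and Tlr3 (-0.77, adjusted p = 0.0226), and 0 were called higher. The 10 summed to 10936, 11015 and 10695 CPM in WT and to 8727, 10614 and 9211 CPM in KO, so every KO library lay below every WT library. The 5 neutrophil markers summed to at most 12.4 CPM, the 4 B cell markers to at most 37.8 CPM and the 3 erythroid markers to at most 0.187 CPM in any library. The 7 cDC2 markers summed to between 222 and 368 CPM in WT and between 514 and 747 CPM in KO, with Cd209a (log2 fold change 2.25) and Klf4 (0.97) called higher. Itgax, the gene of CD11c, was lower (-1.22, edgeR adjusted p = 0.0147), and Ccr9 (1.41) of the pDC list and Adgre1 (0.91) of the macrophage list were higher. The lists around these genes did not all go with them. Of the 4 pan-DC markers, Itgax among them, 2 lay below 0, with a median of 0.01. Of the 4 monocyte and macrophage markers tested 2 lay below 0 (median -0.02), and of the 6 pDC markers 1 did. The 15 immediate early genes summed to between 1395 and 1806 CPM in WT and to 1639, 2848 and 3145 CPM in KO, with 0 called. Genes of the cell cycle (30 genes) summed to 3123, 2857 and 2071 CPM in WT and to 2793, 1287 and 903 CPM in KO 1, KO 2 and KO 3, so KO 2 and KO 3 lay below all other libraries. The part of these differences in the values that follow was not tested.

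The ribosomal protein mRNAs as a family were at nearly the same level in both genotypes. Summed over all 86 genes they reached 64530, 60780 and 66629 CPM in WT and 62610, 60254 and 65750 CPM in KO. The 2 groups overlapped along almost their whole range, since WT 2 and KO 2 were the lowest and WT 3 and KO 3 the highest of their groups. The means were 63979 ± 2963 CPM in WT and 62872 ± 2757 CPM in KO (SD, n = 3 each), a log2 ratio of -0.03. As a share of all reads on genes, the family took 5.95% to 6.64%. In such bulk libraries, fewer cells of a type and less RNA per cell cannot be told apart.

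Of the 83 members that passed the filter on low counts, 1 was lower in KO at an adjusted p under 0.05 and 0 were higher (quasi-likelihood F test of edgeR, p-values adjusted by Benjamini-Hochberg over the 12894 genes tested). The background over all tested genes was 1.85% lower and 2.03% higher. At an unadjusted p under 0.05 there were 8 members (9.64%), against 19.4% of all tested genes. No member reached a log2 fold change of 1 in either direction together with an adjusted p under 0.05, against 1.86% of all tested genes. DESeq2 called 3 members lower (3.61%), against 3.86% of the genes it gave an adjusted p, and limma-voom 1, against 2.06% of all tested genes. Neither called any higher, against 4.7% of genes with DESeq2 and 2.02% with limma-voom. Without the filter on low counts, edgeR called 2 of 85 members lower and 0 higher, against 1.49% and 1.81% of 23037 genes.

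The changes were small and leaned to one side. The log2 fold change was below 0 for 55 of the 83 members (66.3%), against 49.7% of all tested genes, with a median of -0.04 against 0.00. All KO libraries lay below all WT libraries for 17 members (20.5%), against 12.3% of all tested genes, and above them for 3 members (3.61%), against 13.7%. The 17 were Rpl30, Rpl3, Rps13, Rpl27a, Rpl36a, Rpl7a, Rps28, Rps6, Rpl11, Rpl22, Rpl21, Rps26, Rpl35, Rps24, Rpl5, Rpl41 and Rps20, and the 3 were Rpl14, Rpl22l1 and Rps10. Without KO replicate 2 the median of the members was 0.00 and 42 lay below 0. Without WT replicate 3 it was 0.00 and 44 lay below 0. It was -0.08 without WT replicate 2 (66 below 0) and without KO replicate 3 (65 below 0). Without WT replicate 1 it was -0.03 (51 below 0), and without KO replicate 1 it was -0.04 (52 below 0).

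The data bounded most members closely. The 95% interval of the log2 fold change lay within a 1.5-fold change in either direction for 79 of the 83 tested members (95.2%), against 56.9% of all tested genes, and within a 1.2-fold change for 51 (61.4%), against 18.5%. The members are abundant, and abundance narrows the interval: among all tested genes at a mean of 100 CPM or more, 88.6% lay within 1.5-fold and 46.1% within 1.2-fold, and among the 75 members at that level all 75 and 51 did. The 4 members whose interval reached beyond 1.5-fold, Rps10, Rps27rt, Rpl36al and Rpl24, were all counted below 10 CPM.

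**Figure D1:**
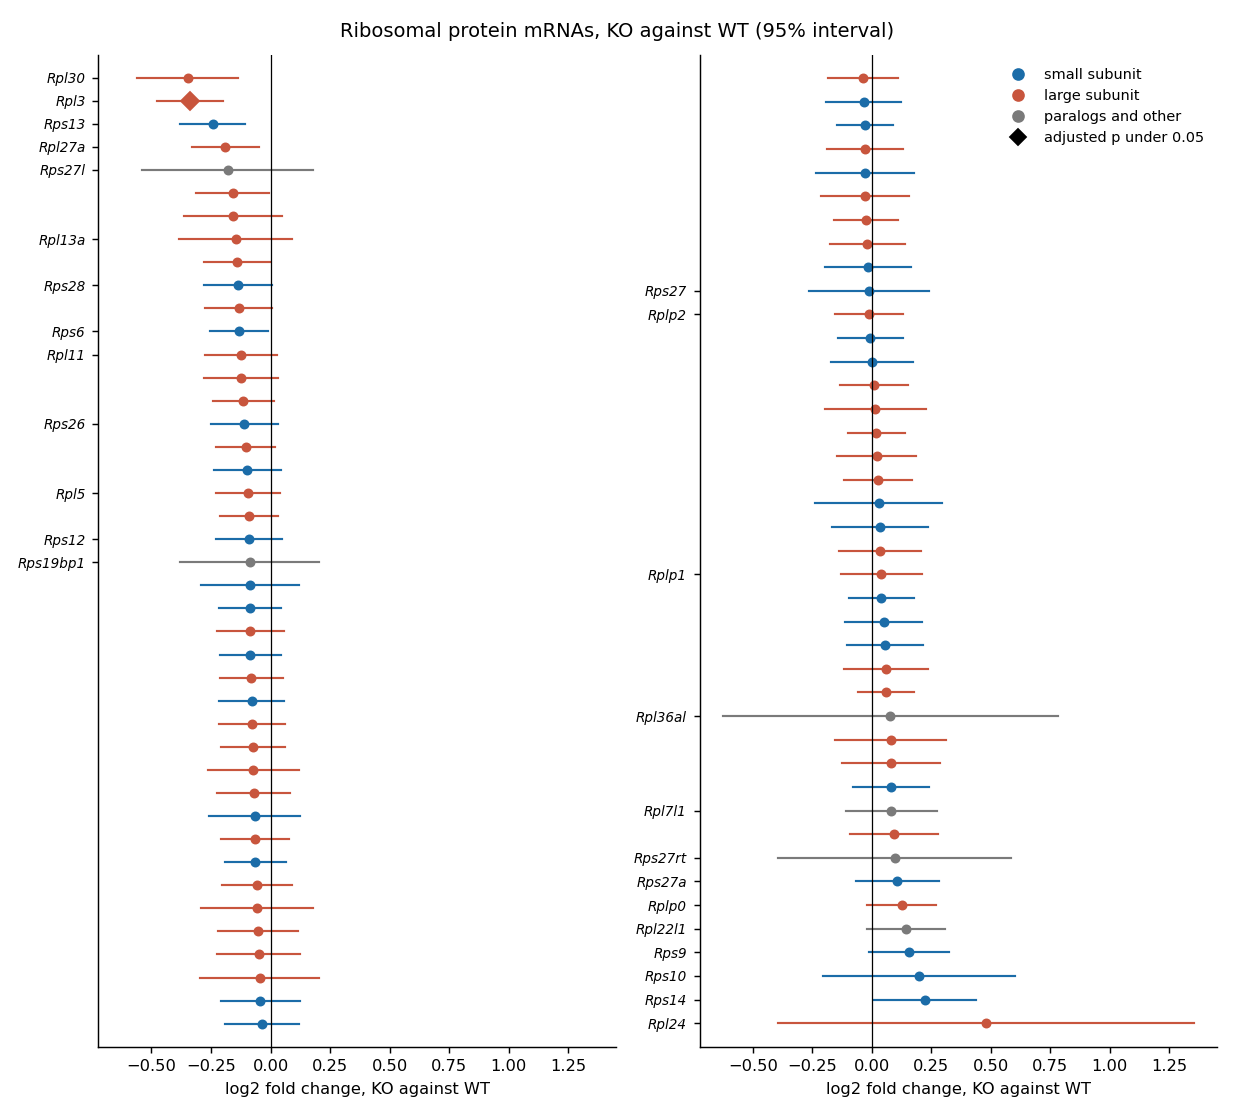
The log2 fold change of KO against WT for the 83 tested members, ordered from lowest (top left) to highest (bottom right), with points for estimates, bars for 95% intervals and a diamond for an adjusted p under 0.05. Most members described in the text carry their name. Rpl3 is the single diamond, and the estimates of all members but Rpl24 lie between -0.35 and 0.22.

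The members' levels also varied together from library to library within each genotype. For the 75 members at 100 CPM or more, the median deviation from each gene's mean over the 6 libraries was 0.03, -0.05 and 0.08 on the log2 scale in WT 1, WT 2 and WT 3, and -0.02, -0.10 and 0.03 in KO 1, KO 2 and KO 3. The 2290 tested genes at that level had medians between -0.01 and 0.01 in every library. KO 2 was the lowest library for 45 of the 75 members and WT 2 for 26, whereas WT 3 was the highest for 38 and KO 3 for 20. WT 3 and KO 3 were the lowest library for 0 members. The 20 genes of mature dendritic cells summed to 1806, 1317 and 1604 CPM in WT and to 594, 2799 and 861 CPM in KO, so KO 2 stood above all other libraries, and 0 of the 20 were called. The part of this in the levels of KO 2 was not tested.

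**Figure D2:**
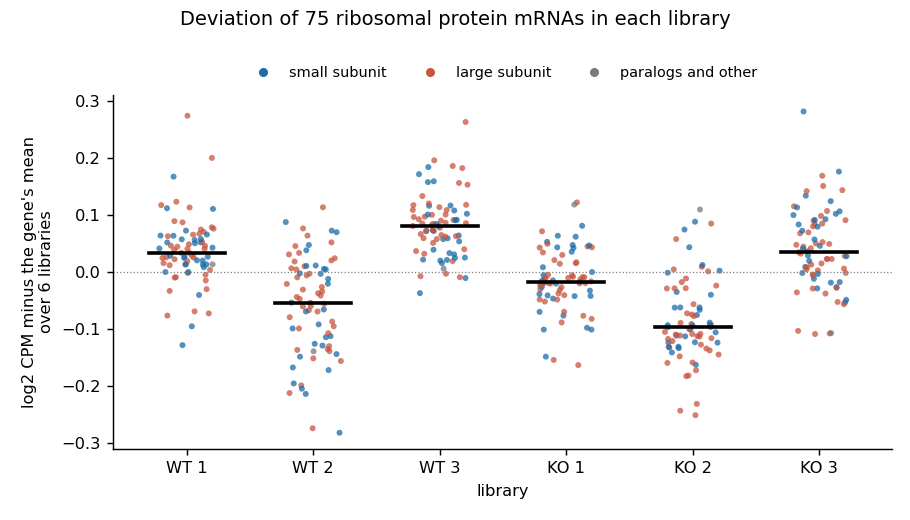
Each point is 1 of the 75 members at a mean of 100 CPM or more, plotted as its log2 CPM minus its mean over the 6 libraries, and the black line is the median of a library. Members lie mostly below 0 in WT 2 and KO 2 and mostly above 0 in WT 3 and KO 3, so each genotype holds libraries on both sides.

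The 2 subunits stood at slightly different proportions in the 2 genotypes. The 31 core small subunit mRNAs summed to 29217, 27410 and 30062 CPM in WT and to 28509, 27589 and 30087 CPM in KO, and the 46 core large subunit mRNAs to 34998, 33087 and 36268 CPM in WT and to 33791, 32342 and 35392 CPM in KO. Both sums overlapped between the genotypes. Their ratio, small over large, was 0.835, 0.828 and 0.829 in WT and 0.844, 0.853 and 0.850 in KO. The groups did not overlap, although the means differed by a log2 ratio of only 0.03. Without Rpl3 the ratio was 0.867, 0.860 and 0.860 in WT and 0.870, 0.879 and 0.876 in KO, again without overlap. This ratio was chosen after its values were seen and was not tested.

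**Figure D3:**
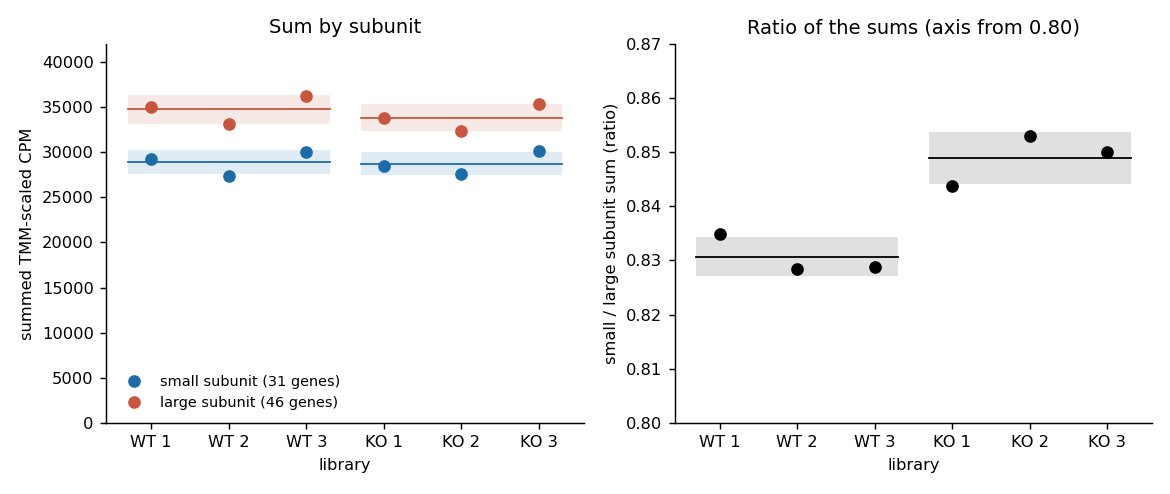
Left, summed TMM-scaled CPM of the core small and large subunit genes in each library. Right, the ratio of the 2 sums on an axis that starts at 0.80. Lines are group means and shaded bands 1 SD (n = 3). The sums overlap between WT and KO, while the 3 KO ratios (0.844 to 0.853) lie above the 3 WT ratios (0.828 to 0.835).

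Rpl3, which lies near the peptidyl transferase centre of the large subunit, was the single member whose difference passed the test. Its gene (ENSMUSG00000060036.14) lies on chr15:80077791-80091868. It was at 1307, 1231 and 1303 CPM in WT and at 1023, 957 and 1060 CPM in KO. Every KO library lay below every WT library, at 1013 ± 52.2 against 1281 ± 42.8 CPM (SD, n = 3 each). The log2 fold change was -0.34 ± 0.06 (SE, 95% interval -0.48 to -0.20, edgeR adjusted p = 0.0276). The call was lost when any one WT library was left out, at edgeR adjusted p-values of 0.103 to 0.155 and log2 fold changes of -0.37 to -0.32, and kept when any one KO library was left out.

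Rpl30, a large subunit protein, had the lowest estimate of the family. It was at 622, 507 and 618 CPM in WT and at 460, 435 and 478 CPM in KO. All KO libraries were lower, and WT 2 stood closer to them than the other WT libraries did. The log2 fold change was -0.35 ± 0.09 (95% interval -0.56 to -0.14), but its edgeR adjusted p of 0.0854 missed 0.05. DESeq2 gave an adjusted p of 0.00957, and edgeR without the filter 0.0441. Of the coding-transcript bases of Rpl30, 55.0% are also covered, on the opposite strand, by D730044K07Rik, a gene model that held 212 reads over the 6 libraries.

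Rps13, a small subunit protein, followed. It was at 556, 541 and 585 CPM in WT and at 465, 460 and 496 CPM in KO. The groups did not overlap (log2 fold change -0.24 ± 0.06, 95% interval -0.38 to -0.11), and its edgeR adjusted p of 0.0705 missed 0.05. DESeq2 gave 0.0101. Rpl27a, the next large subunit member, was at 553, 543 and 584 CPM in WT and at 517, 470 and 487 CPM in KO. Its libraries did not overlap either, with a log2 fold change of -0.19 ± 0.06 and an edgeR adjusted p of 0.142.

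Among the 5 highest estimates, 2 belonged to abundant small subunit members, Rps14, which sits on the platform, and Rps9, which sits where mRNA enters. Rps14 was at 1108, 1034 and 1154 CPM in WT and at 1151, 1258 and 1438 CPM in KO. KO 1 lay within the WT range and KO 3 well above it (log2 fold change 0.22 ± 0.09, 95% interval 0.01 to 0.44, edgeR adjusted p = 0.241). Rps9 was at 1642, 1644 and 1819 CPM in WT and at 1775, 1889 and 2027 CPM in KO. Here too KO 1 fell within the WT range (log2 fold change 0.16 ± 0.07, edgeR adjusted p = 0.291).

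Reads were also counted on pseudogenes nearly identical to the members. Pseudogene transcripts at least 90% identical to a member were found for 82 of the 86 members, 1088 pseudogenes in all, and 115 of them held at least 100 reads over the 6 libraries. Of these 115, 4 were higher in KO at an adjusted p under 0.05 (edgeR, over all tested genes) and 0 were lower, against 2.03% and 1.85% of all tested genes. The 4 were Rps13-ps1, Gm10036, Rpl3-ps1 and Rps19-ps3. The summed level of all matched pseudogenes was 643, 629 and 705 CPM in WT and 834, 867 and 886 CPM in KO. All KO libraries lay above all WT libraries, far under the summed level of the members. Without Rps13-ps1, Rpl3-ps1 and Gm10036, chosen after their values were seen, the sum was 632, 619 and 695 CPM in WT and 660, 702 and 711 CPM in KO, and the groups overlapped.

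Rpl3-ps1 lies on chrX:13202571-13203780 and matches the Rpl3 mRNA over 1210 bases with 2 differences. The windows below show where the aligned sequences differ, with each differing base in capitals. Positions are counted from 1 at the 5' end of the Rpl3 transcript ENSMUST00000081650.14. Sequence outside the aligned stretch is not shown, and how reads were assigned to the gene or to its copy was not examined.
Rpl3, bases 123 to 151: ggcttcctgcctcgCaagcgcagcagccg
Rpl3-ps1, same stretch: ggcttcctgcctcgAaagcgcagcagccg
Rpl3, bases 852 to 880: caccctgcccgtgtTgccttctctgtggc
Rpl3-ps1, same stretch: caccctgcccgtgtCgccttctctgtggc
Rps13-ps1, on chr8:87047689-87048226, differs from the Rps13 transcript ENSMUST00000170953.2 at 2 bases over the 522 bases aligned, and both fall in 1 stretch.
Rps13, bases 494 to 522: ccaccTaattggaaatatgagtcAtccac
Rps13-ps1, same stretch: ccaccCaattggaaatatgagtcGtccac

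Rpl3-ps1 held 252, 244 and 209 reads in WT and 1931, 1552 and 1803 reads in KO. All KO libraries were far above WT, with a log2 fold change of 3.06 ± 0.08 (edgeR adjusted p = 1.03e-05). Rps13-ps1 held 4, 5 and 1 reads in WT and 1682, 1477 and 1526 reads in KO. It was close to absent from WT and present at 67.2 to 68.9 CPM in every KO library. Gm10036, a copy of Rpl11 with 4 differences over 534 bases, held 24, 17 and 33 reads in WT and 662, 522 and 634 reads in KO, again with no overlap (log2 fold change 4.75 ± 0.26, edgeR adjusted p = 0.00041). Rps19-ps3, a copy of Rps19, held 30, 37 and 27 reads in WT and 72, 97 and 92 reads in KO (log2 fold change 1.64 ± 0.26, edgeR adjusted p = 0.0202). In KO, Rpl3-ps1 stood at 7.57% of the CPM of Rpl3, Rps13-ps1 at 14.4% of that of Rps13 and Gm10036 at 4.29% of that of Rpl11.

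When the reads on the matched pseudogenes were added to their members, the log2 fold change of Rpl3 went from -0.34 to -0.24 and its edgeR adjusted p from 0.0276 to 0.0759, so that 0 members were called. The estimate of Rps13 went from -0.24 to -0.05 (adjusted p = 0.665) and that of Rpl11 from -0.12 to -0.06 (adjusted p = 0.673). That of Rpl30, whose 17 matched copies did not differ in sum (7.52 CPM in WT and 8.08 CPM in KO), was -0.34 with them. The estimates of Rps13 and Rpl11 moved toward 0 with the added reads, while that of Rpl30 hardly did. The counts added fix these moves in advance, and which gene the reads came from was not tested.

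**Figure D4:**
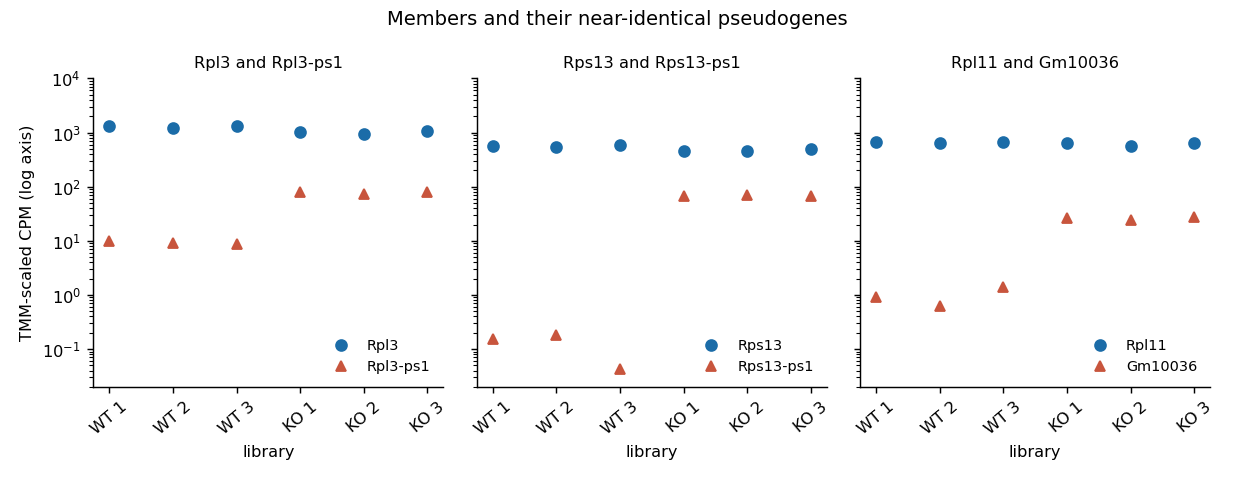
TMM-scaled CPM on a log axis for Rpl3, Rps13 and Rpl11 (circles) and for a near-identical pseudogene of each (triangles) in the 6 libraries. The pseudogenes are higher in all 3 KO libraries than in all 3 WT libraries, and Rps13-ps1 goes from below 0.2 CPM to 67.2 CPM or more.

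The P stalk is a large subunit arm made of Rplp0 and dimers of Rplp1 and Rplp2, on which elongation factors dock. Rplp0, its base, was at 2343, 2288 and 2452 CPM in WT and at 2442, 2565 and 2722 CPM in KO. The 2 upper KO libraries lay above all WT libraries and KO 1 within their range (log2 fold change 0.13 ± 0.06, 95% interval -0.02 to 0.27, edgeR adjusted p = 0.316). Rplp1 had a log2 fold change of 0.04 and Rplp2 of -0.01, with intervals that stayed within -0.16 and 0.21.

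Rpl5 and Rpl11, the proteins of the 5S particle, were both slightly lower in KO, without passing the test. Rpl5 was at 755, 766 and 780 CPM in WT and at 723, 679 and 754 CPM in KO. The groups did not overlap but almost touched (log2 fold change -0.09 ± 0.06, edgeR adjusted p = 0.416). Rpl11 was at 675, 655 and 679 CPM in WT and at 637, 565 and 642 CPM in KO (log2 fold change -0.12 ± 0.06, adjusted p = 0.348), before the reads on Gm10036 were added. Of 15 p53 target genes, 14 were tested and 1 was called, against 2.03% of all tested genes called higher. The called gene was Trp53inp1, higher in KO at a log2 fold change of 0.49 (edgeR adjusted p = 0.0208). The median of the list was 0.27, and its sum was at 881, 874 and 950 CPM in WT and at 975, 1296 and 1269 CPM in KO. KO 1, the library with a cell cycle sum close to WT, was also the KO library closest to WT here. A link between these sums, or between them and Rpl5 or Rpl11, was not tested.

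Rps26 and Rps28, which line the channel where mRNA leaves the small subunit, were at log2 fold changes of -0.11 ± 0.06 and -0.14 ± 0.06. In both, all KO libraries lay below all WT libraries, and neither passed the test (edgeR adjusted p = 0.362 and 0.278). Rps6 was at 625, 628 and 625 CPM in WT and at 557, 559 and 597 CPM in KO. All KO libraries lay below all WT libraries, and the log2 fold change was -0.13 ± 0.05 (95% interval -0.25 to -0.01, edgeR adjusted p = 0.226). Rps27a, made as a fusion with ubiquitin, was at 792, 681 and 798 CPM in WT and at 820, 791 and 836 CPM in KO, with KO 2 just below WT 1 and WT 3 (log2 fold change 0.11 ± 0.07, adjusted p = 0.469). Of 17 members known to be mutated in Diamond-Blackfan anaemia, an inherited red cell failure, 13 had an estimate below 0. This stood against 53 of the 77 core members and 49.7% of all tested genes. The median of the 17 was -0.07, against -0.04 for the core members, and 0 were called. Rps10, with the low counts described below, gave the highest estimate of the 17.

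Ribosomal proteins that the name rule leaves out were not called either. Fau, which encodes the small subunit protein eS30 fused to a ubiquitin-like part, was at 749, 670 and 803 CPM in WT and at 714, 796 and 882 CPM in KO, with broad overlap. Rack1, a scaffold on the small subunit head, was at 1504, 1473 and 1577 CPM in WT and at 1571, 1464 and 1675 CPM in KO. The groups overlapped here too.

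The paralogs were counted at low levels, and none passed the test. Rpl22l1, which can replace Rpl22, was at 56.9, 57.8 and 54.2 CPM in WT and at 58.5, 66.2 and 62.2 CPM in KO. The groups did not overlap (log2 fold change 0.15 ± 0.07, edgeR adjusted p = 0.312), while Rpl22 itself was at 454, 445 and 477 CPM in WT and at 444, 390 and 431 CPM in KO. The ratio of Rpl22l1 to Rpl22 was 0.125, 0.130 and 0.114 in WT and 0.132, 0.170 and 0.144 in KO, each KO library above each WT library. This ratio was also chosen after its values were seen and was not tested.

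Rps27l, a paralog of Rps27 known as a p53 target, was at 100.2, 81.9 and 86.9 CPM in WT and at 84.8, 91.4 and 61.4 CPM in KO, with KO 3 below all others (log2 fold change -0.18 ± 0.15, edgeR adjusted p = 0.56). Rpl7l1, a nucleolar relative of Rpl7, and Rps19bp1, a protein that binds Rps19 and is not part of the ribosome, had log2 fold changes of 0.08 and -0.09. Rps27rt, a retrogene of Rps27, was at 5.56 to 8.50 CPM and had a log2 fold change of 0.10 ± 0.21. The 3 members that the filter removed are known from testis and striated muscle: Rpl10l had 0 reads in all libraries (a count of 0 allows up to 3 reads in a library), Rpl3l had 3 reads in WT 3 and 1 in KO 2, and Rpl39l had 2 reads in KO 1 and 12 in KO 2.

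Levels between genes were compared as CPM per kilobase of the median coding transcript, averaged over the 6 libraries. The 77 core members had a median of 970 CPM per kilobase, with quartiles at 672 and 1360. Rplp1 was among the highest, at 2616 ± 177 in WT and 2688 ± 157 in KO (SD, n = 3 each). Rps12, Rps9 and Rps27 lay below it at 2009, 2008 and 1969 CPM per kilobase, and their order lay within their spread. With the union of all exons as the length, Rplp1 held rank 1 of the family, but Rps9, Rps27 and Rps12 moved to ranks 14, 20 and 29, so the order of these 3 rests on the length used.

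The 3 core members lowest per kilobase stood far below the rest on either length. Rpl24, a large subunit protein, was counted at 0.771, 0.482 and 1.10 CPM in WT and at 1.09, 1.17 and 1.01 CPM in KO. Rps10, a small subunit protein, was at 4.20, 4.15 and 4.54 CPM in WT and at 4.54, 5.60 and 4.67 CPM in KO, and Rpl13a, a large subunit protein known for silencing inflammatory mRNAs, was at 34.9, 34.8 and 33.3 CPM in WT and at 34.2, 27.1 and 31.8 CPM in KO. Each of them shares a large part of its coding-transcript bases with another gene on the same strand: 71.5% of Rpl24 with Gm28037, 54.9% of Rpl13a with Gm45713 and 38.8% of Rps10 with RPS10-NUDT3, a read-through gene. Those 3 genes held 0 reads in all libraries. Rpl36al, a paralog counted at 1.45 to 2.47 CPM, shares 24.5% with Gm49383, which held 3 reads.

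Whether the deposited counts used strand is not stated. Of the members that overlap a gene on the opposite strand, Rpl35 shares 68.3% of its bases with Wdr38 and was at 348 CPM on average, Rpl23a shares 55.4% with Tlcd1 and was at 584 CPM, and Rpl22l1 shares 28.3% with Gm33051 and was at 59.3 CPM. Reads that overlap more than one gene, 1.81% to 1.98% of each library, were set aside as ambiguous in the deposited counts, and 5.33% to 5.76% mapped to several places. The part of these overlaps in the low counts of Rpl24, Rps10, Rpl13a and Rpl36al was not tested, and those counts were not read as mRNA levels. The largest fold estimate of the family, that of Rpl24 (log2 fold change 0.48 ± 0.37, 95% interval -0.40 to 1.35, edgeR adjusted p = 0.523), rests on such counts, and so does that of Rps10 (0.20 ± 0.17, adjusted p = 0.565). With pseudogene reads added, the estimate of Rpl24 was 0.14 (adjusted p = 0.695). Its copy Gm9385 was at 3.84 CPM in WT and 3.91 CPM in KO, above Rpl24 itself.

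**Figure D5:**
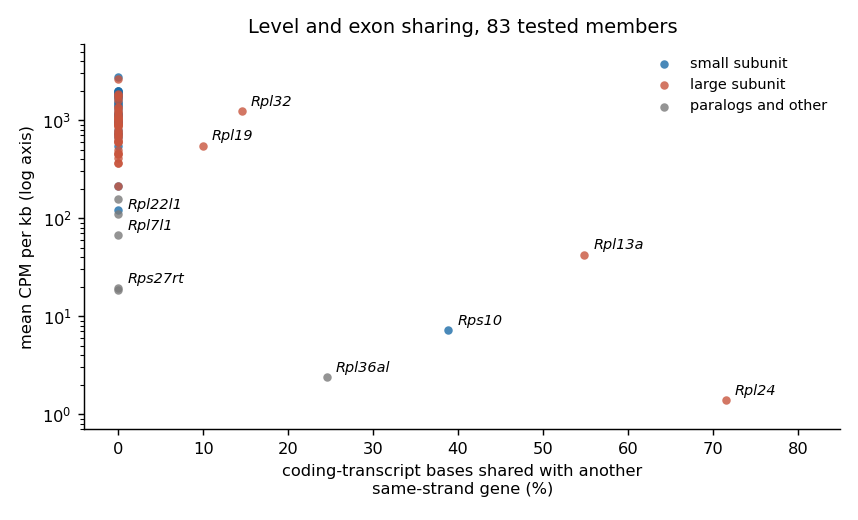
Mean level of the 83 tested members in CPM per kilobase (log axis) against the percent of their coding-transcript bases that another gene on the same strand also covers. Rpl24, Rps10, Rpl13a and Rpl36al, which share 24.5% or more, lie below 50 CPM per kilobase, while the core members that share less than 15% lie at 120 or more.

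Lists of genes that act with the ribosome were read in the same fit. Of 24 other TOP mRNAs, such as those of translation elongation factors, 0 were called, with a median of -0.04. Among 63 genes of ribosome biogenesis, which act in the nucleolus, 0 were called (median -0.01), and among 11 host genes of small nucleolar RNAs 0 were called (median -0.10). Of 78 genes for mitochondrial ribosomal proteins, which build the separate ribosome of the organelle, 77 were tested and 0 were called. Yet 71 of these 77 had an estimate below 0, their median was -0.11, and their sum was at 2233, 2171 and 2155 CPM in WT and at 2116, 1966 and 1931 CPM in KO, with no overlap. Of the 13 mRNAs encoded by the mitochondrial genome, 10 were tested and 0 were called (median -0.08).

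Of 42 genes of mTORC1 signalling and translation control, 41 were tested, 3 were lower in KO at an adjusted p under 0.05 and 0 were higher, against 1.85% and 2.03% of all tested genes. Mtor, the kinase of the complex, was at 118, 125 and 124 CPM in WT and at 102, 85.2 and 92.1 CPM in KO. The groups were well apart (log2 fold change -0.40 ± 0.08, edgeR adjusted p = 0.0356). Rraga, which encodes the RagA GTPase that brings mTORC1 to the lysosome, was at 123, 125 and 125 CPM in WT and at 106, 106 and 101 CPM in KO (log2 fold change -0.25 ± 0.05, adjusted p = 0.0494). Eif2ak2, which encodes the double-stranded RNA sensor PKR, an interferon-induced kinase that halts initiation, was at 110, 111 and 95.2 CPM in WT and at 68.0, 48.0 and 54.9 CPM in KO (log2 fold change -0.89 ± 0.13, adjusted p = 0.0168). The median of the 41 genes was -0.02, and 21 of them lay below 0.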

How the data were processed

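Per the labels and the methods of the study, poly(A) RNA of sorted cDC1 was made into directional NEBNext Ultra II libraries and sequenced in pairs on an Illumina NextSeq500. STAR 2.6.1a served the authors as aligner, on mm10, and the deposited values are counts of uniquely mapped reads per gene for each library, not normalised. Each file holds a single count column, and the sources used here do not say whether reads were counted by strand. The submitters' processing notes also name bcl2fastq 2.19.1.403, RSEM and DESeq2 1.20.0.

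Rows that name no gene (unmapped, multimapping, no feature, ambiguous) were kept out of library sizes and tests, and reads on genes made up 79.1% to 79.7% of each library's total. Gene names, biotypes and exons came from GENCODE M21 (GRCm38), matched without the version suffix: 54495 identifiers matched and 37 did not. Genes were filtered with filterByExpr (minimum count 10, minimum total 15), which left 12894, and tested KO against WT with edgeR 4.0.16 (quasi-likelihood F test, TMM scaling, no covariate, Benjamini-Hochberg) in R 4.3.3. Alternatives used DESeq2 1.42.0, limma-voom 3.58.1, other scalings, filters, left-out libraries, a replicate block and added pseudogene reads. The script was tested on simulated data. Pseudogene transcripts were matched to members with BLAST+ 2.17.0 (at least 90% identity over at least 50% of the pseudogene). The length of a gene is the median over its basic protein-coding transcripts. Replicates differed by more than sampling noise (chi-square per degree of freedom 6.76 to 42.0), so each counted as 1 sample. Standard errors were derived from each log2 fold change and its quasi-likelihood F statistic, and the 95% intervals from these standard errors. No interval for counting error alone was given.

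The members, the gene lists and the rule for named genes were chosen with earlier results of these data known. Named were Jun and Junb, called members, the 5 highest and 5 lowest log2 fold changes, the 5 highest and 3 lowest core levels per kilobase, all paralogs, members that failed the filter, members moved by over 0.1 by pseudogene reads, fixed role groups, Fau and Rack1, and called genes of related lists of at most 10. Rpl11, Rpl22, Rpl14 and other names outside it were chosen after their values were seen. Some genes that the rule names are not reported here. Promoters were RefSeq sequences of GRCm38.p6, matched by symbol for 66 of the 86 members.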

Additional observations from a re-analysis of the deposited data

How the results depend on the processing

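The number of members at an adjusted p under 0.05, 1 with edgeR, was 3 with the DESeq2 Wald test (Rpl3, Rpl30 and Rps13; 1104 genes in all against 500), 2 without the filter on low counts (Rpl3 and Rpl30; 762 of 23037 genes), 0 with pseudogene reads added and 0 when a log2 fold change of at least 1 was required as well. Leaving out 1 library gave 0 to 1, with 0 for each WT library and 1, Rpl3, for each KO library. The number of called genes over all genes fell from 500 to between 95 and 201 without a WT library. It was 1320, 719 and 352 without KO replicates 1, 2 and 3. For Rpl3 the adjusted p was 0.155, 0.103 and 0.118 without WT replicates 1, 2 and 3. The median log2 fold change of the members stayed between -0.08 and 0.00, and the log2 ratio of their sums between -0.06 and 0.00 when 1 library was left out. Of 389 log2 fold changes of 26 named members under 15 alternative fits, 11 changed sign, all when 1 library was left out. The main estimates of these members lay between -0.09 and 0.10, and the reversed value furthest from 0 was -0.18, for Rpl36al. Rplp1 went from 0.04 to a range of -0.020 to 0.088, Rps27 from -0.01 to -0.12 to 0.073 and Rps19bp1 from -0.09 to -0.18 to 0.0049. Rpl36al went from 0.08 to -0.18 to 0.23, Rps27rt from 0.10 to -0.014 to 0.27 and Rplp2 from -0.01 to -0.050 to 0.031. Scaling by DESeq2 size factors, by library totals alone or by TMM without the members left 1 member called each, and moved the median of all genes by less than 0.01.

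The titles give both groups replicate numbers 1 to 3. Same-numbered libraries deviated together with correlations of 0.09, -0.15 and 0.20, so the numbers were not taken to pair the samples. With the replicate block, 1 member was called (Rpl3), the median of the members was -0.04 and 417 genes were called in all. WT 2, KO 1 and KO 2 did not correlate best with the library of their own number. The median half-width of the members' 95% intervals was 0.16, with 3 libraries a group. For a typical member, smaller log2 fold changes could not be told from 0. This width belongs to an unadjusted p, so larger changes could also go uncalled at the adjusted limit. Rpl27a at -0.19, Rps13 at -0.24 and Rpl30 at -0.35 were not called by edgeR in the main fit.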
